A study of Bos taurus with 18 samples.

Results

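CXCR1 and 3 chemokines of the neutrophil-attracting family, CXCL8, CXCL2 and CXCL5, were followed in the cells of cow's milk, receptor beside ligand on every array. They were chosen by gene symbol: a probe set, the group of short probes that reads a transcript, was taken where the array's gene table names exactly that gene. Each of the 4 genes had 1 such probe set, which makes 4 of the 24016 tested probe sets and 4 of the 9155 genes named on the array. The array's gene table gives Entrez gene 281863 for CXCR1, 280828 for CXCL8, 281734 for CXCL2 and 281735 for CXCL5.

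RNA came from milk somatic cells, the leukocytes and shed udder cells carried in milk, of 18 dairy cows (Bos taurus), with 1 array per cow. Of these, 6 cows had mastitis, an inflammation of the udder, 6 had endometritis, an inflammation of the uterine lining, and 6 were healthy. The cows with mastitis or endometritis were sampled 10 to 220 days after calving in lactations 1 to 8, and the labels give neither the pathogen nor the severity of the disease. The healthy cows had no clinical signs and fewer than 100000 somatic cells per ml, and most were sampled 10 to 100 days after calving. The labels put the healthy cows at 2 to 4 years of age and in lactations 1 to 8, which cannot both hold for every animal. No strain, breed or treatment is given for any group. All values are log2 normalised intensity as deposited, where 1 unit is a doubling, and levels of different probe sets are not set against each other.

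CXCR1 is a G protein-coupled receptor on the surface of neutrophils, and CXCL8 (interleukin 8) is its classical ligand. CXCL2 and CXCL5 belong to the same group of CXC chemokines, those with a Glu-Leu-Arg motif before the paired cysteines, which in humans act mainly through the related receptor CXCR2 and draw neutrophils out of blood into inflamed tissue. Macrophages and epithelial cells release these ligands on contact with bacteria or with interleukin 1 and tumour necrosis factor, and in the udder they call neutrophils into the milk. The reference gene table lists CXCR2 among the older names of bovine CXCR1 and CXCL6 among those of bovine CXCL5, so the symbols of this family have moved between genes. Whether the CXCR1 probe set also reads transcripts of CXCR2 was not tested, since probe sequences were not used here, and every CXCR1 value below carries that limit.

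The mastitis arrays held far more CXCR1 signal than the healthy arrays, and more CXCL8 and CXCL2 signal, while CXCL5 did not pass the test. Of the 4 genes, 3 were called higher in mastitis than in healthy and 0 lower, beside 19.5% of all tested probe sets called, 10.2% higher and 9.35% lower. A probe set was called where its p, adjusted over all 24016 probe sets by limma, was under 0.05. In CXCR1 and CXCL8 the 2 groups did not overlap, with all 6 mastitis arrays above all 6 healthy arrays, which held for 6.22% of all probe sets, while 5.84% lay wholly below. In endometritis 0 of the 4 genes was called against healthy, nor was any other probe set (0.0%), and 1047 of the 24016 had an unadjusted limma p under 0.05. That is below the share of 0.05 that would fall there on average with no difference at all. All 4 genes overlapped between endometritis and healthy, and 0.0999% of probe sets lay wholly above and 0.104% wholly below healthy. Both comparisons use the same 6 healthy arrays.

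**Figure D1:**
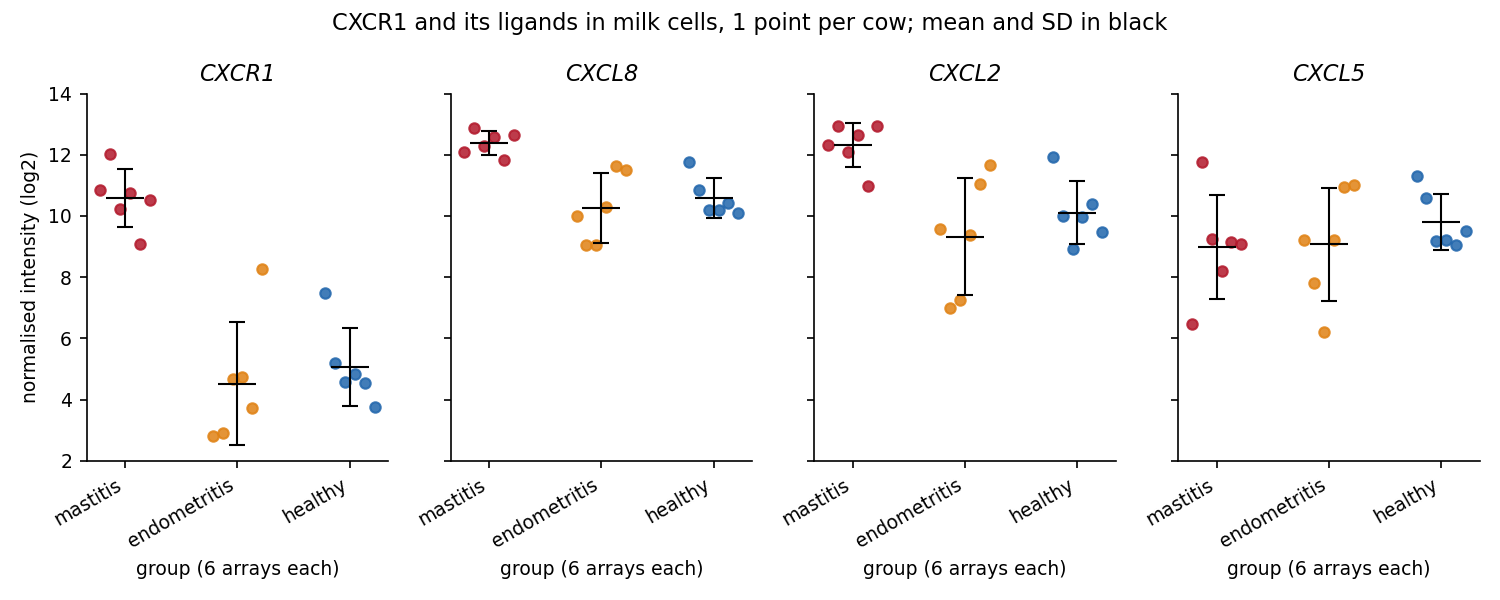
Log2 normalised intensity of CXCR1, CXCL8, CXCL2 and CXCL5 on each of the 18 arrays, with 1 panel per gene and mastitis, endometritis and healthy from left to right; points are arrays and bars show the mean and SD of 6 arrays. The 6 mastitis points of CXCR1 lie between 9.09 and 12.03, above every point of the other groups, whereas the CXCL5 points of the 3 groups share 1 range.

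CXCR1 had 10.84, 12.03, 10.23, 10.74, 9.09 and 10.53 on mastitis arrays 1 to 6. On endometritis arrays 1 to 6 it had 2.82, 2.90, 4.67, 4.74, 3.73 and 8.28, and on healthy arrays 1 to 6 it had 7.48, 5.20, 4.58, 4.84, 4.55 and 3.77. The lowest mastitis array was above the highest array of either other group, and endometritis 6 and healthy 1 stood highest within theirs. The mean was 10.58 ± 0.95 in mastitis, 4.52 ± 2.02 in endometritis and 5.07 ± 1.27 in healthy (SD, n = 6 each). Mastitis minus healthy was 5.51 ± 0.84 (SE, 95% interval 3.72 to 7.29), or 45.5-fold, with an adjusted p of 0.000365 from limma, and only 2 of the 24016 probe sets had a larger positive difference. Endometritis minus healthy was -0.55, with an interval of -2.34 to 1.24 (limma adjusted p = 1).

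CXCL8, the chief neutrophil attractant of the family, had 12.10, 12.89, 12.27, 12.58, 11.83 and 12.66 on mastitis arrays 1 to 6. It had 9.99, 9.04, 9.06, 10.30, 11.64 and 11.50 on endometritis arrays 1 to 6, and 11.78, 10.85, 10.19, 10.18, 10.41 and 10.10 on healthy arrays 1 to 6. The mastitis arrays lay above all others, but by a narrow margin: the lowest of them was 11.83, and healthy 1 and endometritis 5 and 6 came close to it. Mastitis minus healthy was 1.80 ± 0.45 (SE, interval 0.85 to 2.75), a 3.49-fold higher signal (limma adjusted p = 0.00918), and endometritis minus healthy was -0.33 with an interval of -1.28 to 0.62. The distance between the 3′ and 5′ probe sets of the GAPDH control, which grows as RNA breaks down, was 0.39 ± 0.23 in mastitis, 0.58 ± 0.25 in endometritis and 0.88 ± 0.40 in healthy (SD, n = 6 each). With that distance as a covariate the CXCL8 difference was 1.44 ± 0.54 (SE) and was no longer called (limma adjusted p = 0.154), whereas that of CXCR1 was 5.26 ± 1.07 and remained called (adjusted p = 0.0103). The distance also went with the groups, so group and RNA quality cannot be told apart in this fit, and both SEs were larger than without it. Over all probe sets the calls between mastitis and healthy fell from 4689 to 1428 with this covariate.

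CXCL2, another neutrophil attractant of the Glu-Leu-Arg group, had 12.30, 12.94, 12.08, 12.65, 10.99 and 12.92 on mastitis arrays 1 to 6. It had 9.57, 6.98, 7.25, 9.39, 11.05 and 11.67 on endometritis arrays 1 to 6, and 11.91, 10.01, 8.92, 9.97, 10.38 and 9.48 on healthy arrays 1 to 6. Here the groups overlapped, since mastitis 5 lay below healthy 1 and below endometritis 5 and 6. Mastitis minus healthy was 2.21 ± 0.75 (SE, interval 0.61 to 3.80), 4.61-fold, and passed narrowly (limma adjusted p = 0.0498). Leaving out each array in turn ended the call in 12 of 18 fits, with a difference of 1.97 to 2.57 and an adjusted p of 0.0251 to 0.108 over all 18, and so did the fit with the GAPDH covariate (1.66, adjusted p = 0.395). Endometritis minus healthy was -0.79, with an interval of -2.38 to 0.80 (limma adjusted p = 0.925).

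CXCL5, a chemokine of the same group that in humans is known for its release by epithelial cells, had 6.49, 11.75, 9.25, 8.22, 9.14 and 9.09 on mastitis arrays 1 to 6. It had 9.22, 7.82, 6.21, 9.20, 10.96 and 11.02 on endometritis arrays 1 to 6, and 11.30, 10.59, 9.17, 9.22, 9.04 and 9.51 on healthy arrays 1 to 6. Mastitis 2 held the highest of the 18 values and mastitis 1 the lowest but 1, and all 3 groups overlapped. Mastitis minus healthy was -0.82 ± 0.88 (SE, interval -2.68 to 1.05; limma adjusted p = 0.580), and endometritis minus healthy was -0.73 (interval -2.60 to 1.13; adjusted p = 0.962). These intervals are wide enough to hold a fall of more than 2 units and a rise of about 1 unit.

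Mastitis was also set against endometritis directly, a comparison that shares its arrays with both others. Of the 4 genes, 3 were higher in mastitis, beside 14.5% of all probe sets called, 7.99% higher and 6.55% lower. CXCR1 and CXCL8 had no overlap between the groups, which held for 4.43% of probe sets upward and 3.91% downward. CXCR1 differed by 6.06 (interval 4.27 to 7.84), or 66.6-fold, and only 4 probe sets had a larger positive difference (limma adjusted p = 0.000253). On endometritis 1 and 2 CXCR1 stood at 2.82 and 2.90, near the lowest deposited value of 2.43, where the size of a fold is less certain. CXCL8 differed by 2.13 (interval 1.19 to 3.08; adjusted p = 0.00458) and CXCL2 by 3.00 (interval 1.41 to 4.59; adjusted p = 0.0129). CXCL5 differed by -0.08 (interval -1.95 to 1.78; adjusted p = 1). In order of mean, CXCR1, CXCL8 and CXCL2 were highest in mastitis, then healthy, then endometritis, and the last pair did not differ beyond their spread. For CXCL5 the order was healthy, endometritis, mastitis, and no pair of groups differed beyond its spread.

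**Figure D2:**
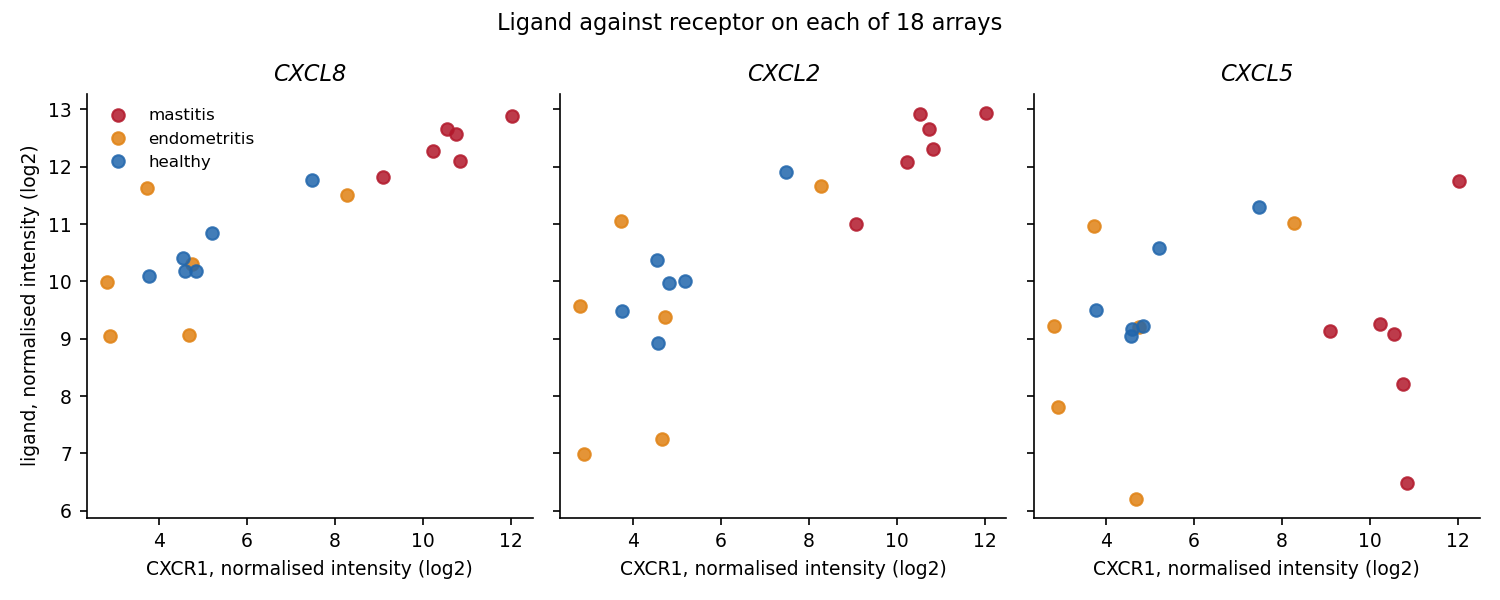
CXCR1 on the x axis against each ligand on the y axis, both as log2 normalised intensity, with 1 panel per ligand and 1 point per array, coloured as mastitis, endometritis or healthy. The 6 mastitis arrays form a separate cluster at a CXCR1 of 9.09 or more, with CXCL8 at 11.83 or more, above all other arrays, CXCL2 at 10.99 or more, overlapping the other groups, and CXCL5 spread from 6.49 to 11.75.

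In log2 signal, CXCR1 differed between mastitis and healthy by more than each ligand did. The receptor's value minus the ligand's on the same array was compared between groups with exact two-sided permutation tests over all 924 arrangements of 6 against 6, in a family of 9 tests, where the smallest possible p is 0.00216. CXCR1 minus CXCL8 averaged -1.81 ± 0.67 in mastitis and -5.52 ± 0.68 in healthy (SD, n = 6 each), a difference of 3.71 in favour of the receptor (exact permutation p = 0.00216, adjusted 0.00325). CXCR1 minus CXCL2 averaged -1.74 ± 0.50 in mastitis and -5.04 ± 0.63 in healthy, a difference of 3.30, and CXCR1 minus CXCL5 averaged 1.59 ± 1.63 in mastitis and -4.73 ± 0.70 in healthy, a difference of 6.32, each with the same exact permutation p. In all 3 the 6 mastitis arrays lay above all 6 healthy arrays, as they did for CXCR1 alone. How many other probe sets would give the same when taken from CXCR1 was not examined. The separation is therefore not shown to be particular to the ligands. Only the difference between groups is read here, because the 2 probe sets have no common scale. Whether their signals respond alike to a change in RNA was not tested. On ranks, given below, the differences for CXCL8 and CXCL2 did not pass. Ranks could not show an unequal rise for CXCL8, since it and CXCR1 both fill the top ranks in mastitis.

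**Figure D3:**
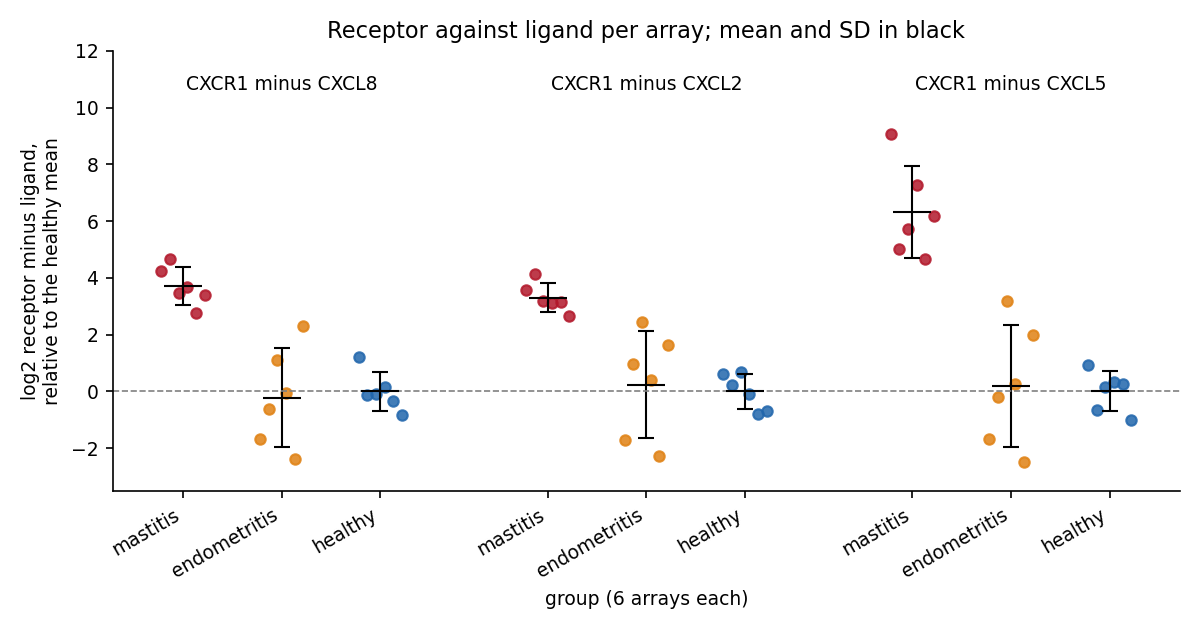
CXCR1 minus each ligand on the same array, in log2 units relative to the healthy mean of that pair, for mastitis, endometritis and healthy from left to right under each ligand; points are arrays and bars the mean and SD of 6 arrays. Mastitis arrays lie at 2.65 or more for every ligand, and endometritis arrays scatter on both sides of 0.

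Against endometritis the mastitis arrays stood 3.92 higher for CXCR1 minus CXCL8, 3.06 for CXCR1 minus CXCL2 and 6.14 for CXCR1 minus CXCL5 (exact permutation p = 0.00216 and adjusted 0.00325 in each, n = 6 and 6, no overlap). CXCR1 alone did not overlap between these groups either. Endometritis did not pass against healthy for any ligand: the differences were -0.22 for CXCL8, 0.24 for CXCL2 and 0.18 for CXCL5 (exact permutation p = 0.784, 0.760 and 0.849). The endometritis arrays scattered more widely, with an SD of 1.74 for CXCR1 minus CXCL8 against 0.68 in healthy. Each gene's values were also replaced by their ranks among the 18 arrays. The mastitis minus healthy difference was then -0.17 rank for CXCL8 and 0.50 for CXCL2, and neither passed. In mastitis CXCR1 and CXCL8 both fill the top 6 ranks, whereas for CXCL2 mastitis 5 lies below healthy 1 and endometritis 5 and 6. For CXCL5 the rank difference was still called against healthy but not against endometritis (11 ranks, exact permutation p adjusted 0.0682).

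The ligands also parted from each other, a comparison added after the values had been seen. CXCL8 minus CXCL5 averaged 3.40 ± 1.53 in mastitis and 0.78 ± 0.41 in healthy (SD, n = 6 each), a difference of 2.62 (exact permutation p = 0.00433, adjusted 0.0130 over 9), and 6 of 6 mastitis arrays were above the healthy mean. CXCL2 minus CXCL5 averaged 3.33 ± 1.71 in mastitis and 0.31 ± 0.71 in healthy, a difference of 3.02 with the same exact permutation p. CXCL8 minus CXCL2 differed by -0.40 between mastitis and healthy and did not pass (exact permutation p = 0.165, adjusted 0.247). Between endometritis and healthy the 3 differences lay between -0.06 and 0.46, and none passed (exact permutation p of 0.288 or more). Against endometritis, CXCL2 minus CXCL5 was 3.08 higher in mastitis (exact permutation p = 0.00216, adjusted 0.0130), and CXCL8 minus CXCL5 was 2.22 higher (p = 0.0130, adjusted 0.0292). The latter call was lost when the arrays were quantile-normalised again (adjusted 0.0536) and in 4 of the 12 tests that left out 1 array. CXCL8 minus CXCL2 differed by -0.87 and did not pass (exact permutation p = 0.0498, adjusted 0.0896), but was called in 2 of those 12 tests.

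Within each group of 6 arrays, Pearson's r of CXCR1 with each ligand was positive, but none of the 9 relations passed adjustment. Among the mastitis arrays r of CXCR1 was 0.827 with CXCL8 (exact permutation p = 0.0375, adjusted 0.0875; Spearman's rho 0.6, p = 0.242) and 0.855 with CXCL2 (exact permutation p = 0.0403, adjusted 0.0875; rho 0.771, p = 0.103). Without the 2 arrays farthest from the median CXCR1 these became -0.077 and 0.334, so they rested on those arrays. In endometritis r was 0.510 with CXCL8 and 0.546 with CXCL2 (exact permutation p = 0.315 and 0.267; rho 0.429 and 0.371, p = 0.419 and 0.497), and 0.0625 and 0.158 without the 2 far arrays. In healthy r was 0.956 with CXCL8 (exact permutation p = 0.00833, adjusted 0.075; rho 0.771, p = 0.103) and 0.765 without the 2 far arrays. With CXCL2 it was 0.872 in healthy (exact permutation p = 0.0486, adjusted 0.0875; rho 0.543, p = 0.297) and 0.254 without them. With CXCL5, r was 0.358 in mastitis, 0.384 in endometritis and 0.840 in healthy (exact permutation p = 0.547, 0.456 and 0.0292; rho -0.0857, 0.257 and 0.657, p = 0.919, 0.658 and 0.175). Without the 2 far arrays those were -0.830, -0.177 and 0.933. Groups were not pooled because the mastitis arrays form a cluster of their own.

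The ligands were related to each other in the same way, also added after the values had been seen. Between CXCL8 and CXCL2 r was 0.916 in mastitis (exact permutation p = 0.00694; rho 0.943, p = 0.0167), 0.973 in endometritis (p = 0.0208; rho 0.886, p = 0.0333) and 0.890 in healthy (p = 0.0292; rho 0.771, p = 0.103), each with an adjusted p of 0.05 over 9, which is not under the threshold. Without the 2 arrays farthest from the median CXCL8 these were 0.854, 0.967 and 0.682. In mastitis CXCL5 had an r of 0.555 with CXCL8 and 0.206 with CXCL2 (exact permutation p = 0.249 and 0.651; rho 0.371 and 0.143). In endometritis it had 0.946 and 0.944 (exact permutation p = 0.0222 and 0.0125; rho 0.829 and 0.943). In healthy r was 0.925 and 0.733 (exact permutation p = 0.0333 and 0.0889; rho 0.429 and 0.371), and it turned to -0.853 and -0.186 without the 2 far arrays. The difference of r between groups was not tested.

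Genes were also ranked by the correlation of their deviations from the group means with those of a member, over 18 arrays and 6550 genes, as a description. For CXCR1 the largest deviations were those of endometritis 6 (8.28 against a group mean of 4.52) and healthy 1 (7.48 against 5.07). The order without these arrays was not examined. The 5 genes most like CXCR1 were RUBCNL (r = 0.912), S100A9 (0.893), PSTPIP2 (0.893), WLS (0.858) and VMP1 (0.841). S100A9 is a calcium-binding protein that is abundant in neutrophils, and PSTPIP2 is an adaptor of myeloid cells. The ligands stood lower in that order, CXCL2 at place 63 (r = 0.652), CXCL8 at place 67 (r = 0.646) and CXCL5 at place 317 (r = 0.436). The 5 genes most like CXCL8 were CXCL2 (r = 0.949), GRO1 (0.937), NINJ1 (0.932), DUSP1 (0.912) and IER3 (0.908). GRO1 is a chemokine of the same group, DUSP1 a phosphatase that acts on MAP kinases and IER3 an immediate early gene.

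In the reference gene order (assembly ARS-UCD2.0) the ligands lie in 1 cluster, in which CXCL8, CXCL5, PF4, CXCL2, CXCL3 and GRO1 follow each other with unmeasured records between them. Their differences between mastitis and healthy were not alike: 1.80 for CXCL8, -0.82 for CXCL5, -0.75 for PF4, 2.21 for CXCL2, 0.54 for CXCL3 and 0.76 for GRO1. On the side of CXCL8 away from the other chemokines, AFP differed by 0.55 and AFM by 0.00 (limma adjusted p = 0.146 for AFP), and neither passed. Next to CXCR1 lies ARPC2, a subunit of the Arp2/3 actin complex, at 1.13 (adjusted p = 0.0508). GPBAR1 and AAMP beside it each differed by 0.02, and PNKD fell by 0.71 (adjusted p = 0.00709), although its second probe set differed by 0.07 (adjusted p = 0.406). CXCR2 lies close to CXCR1 and no probe set carries its name here, so its level was not analysed.

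Among the other CXC chemokines CXCL10 was higher and CXCL11 lower in mastitis than in healthy. Of 14 listed, 10 had a probe set, and the other 8 did not pass, with a median difference of 0.24. Over all 9155 genes 11.3% were higher and 15.8% lower, with a median of -0.01. CXCL10, an interferon-induced attractant of T cells, had a lowest, median and highest value of 2.85, 5.66 and 8.43 in mastitis, 2.45, 2.87 and 3.85 in endometritis and 2.70, 2.83 and 3.40 in healthy. It rose by 2.95 ± 0.68 (SE, limma adjusted p = 0.00594), with the mastitis arrays reaching down into the healthy range. CXCL11, which shares the receptor of CXCL10 in humans, was lower in mastitis, with a median of 3.07 against 4.97 in healthy, and differed by -1.72 ± 0.49 (SE, limma adjusted p = 0.0194). With the GAPDH covariate 0 of the 10 was called, while the calls over all probe sets fell from 4689 to 1428.

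GRO1, of the Glu-Leu-Arg group, was high in every group, with a median of 12.13 in mastitis, 10.85 in endometritis and 11.26 in healthy. Its representative probe set differed by 0.76 between mastitis and healthy (limma adjusted p = 0.386), and its other 3 probe sets gave -0.02, 1.38 and 1.41, none of which passed. CXCL3, a further member of the Glu-Leu-Arg group, was at background in healthy, with all 6 arrays at or under the table median of 2.55, and reached 3.99 at most in mastitis (adjusted p = 0.112). CXCL16 differed by 1.02 (adjusted p = 0.277) and its second probe set by 1.77 (adjusted p = 0.0343), so both were higher and only the second passed. PF4, a platelet chemokine, did not pass (adjusted p = 0.443). CXCL13, CXCL14 and CXCL17 were at background in both endometritis and healthy, and CXCL12, CXCL14 and CXCL17 in mastitis. In endometritis 0 of the 10 was called against healthy, with a median of -0.01 and CXCL11 at -0.93 as the smallest p.

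**Figure D4:**
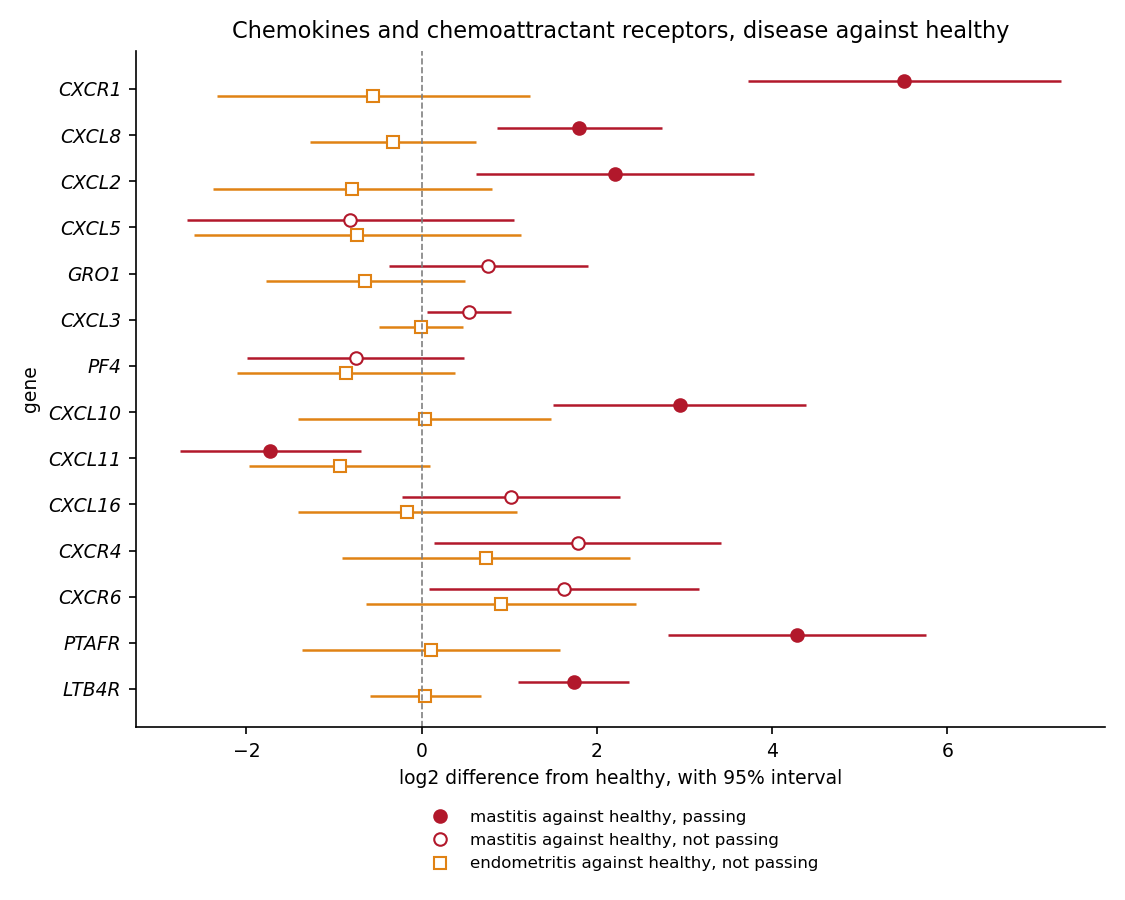
Difference from healthy in log2 units with its 95% interval for the 4 members and for other chemokines and chemoattractant receptors, with mastitis above endometritis in each row; filled points passed limma's adjusted threshold. In mastitis CXCR1 at 5.51 and PTAFR at 4.29 stand farthest to the right, and every endometritis interval crosses 0.

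Other receptors that guide leukocytes were examined beside CXCR1. Of 17 listed, 8 had a probe set, and 2 were higher in mastitis than in healthy, 0 were lower and 6 did not pass (median 0.88), beside 11.3% of all genes called higher. PTAFR, the receptor for platelet-activating factor, had a lowest, median and highest value of 9.24, 9.51 and 11.22 in mastitis, 3.87, 5.09 and 8.10 in endometritis and 4.07, 5.42 and 7.27 in healthy, with no overlap between mastitis and the others. It rose by 4.29 ± 0.69 (SE, limma adjusted p = 0.000548). LTB4R, a receptor for the lipid attractant leukotriene B4, rose by 1.74 ± 0.30 (adjusted p = 0.000821), with 3.15 to 5.40 in mastitis and 2.48 to 2.67 in healthy. CXCR4 differed by 1.78 (adjusted p = 0.131), CXCR6 by 1.62 (adjusted p = 0.143) and CXCR3 by 0.11 (adjusted p = 0.0858), and none of these passed. CXCR5 and the scavenging receptors ACKR1 and ACKR3 did not pass either. In endometritis 0 of the 8 was called against healthy. Against endometritis the same count of 2 was higher in mastitis, beside 9.14% of all genes called higher.

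Genes that carry the signal of such receptors were followed as a list of G proteins, kinases and regulators. Of 35 listed, 22 had a probe set. In mastitis 11 were higher than in healthy, 0 lower and 11 did not pass, with a median of 0.85. Over all genes 11.3% were called higher and 15.8% lower. VAV1, an exchange factor for Rac, rose by 2.87 ± 0.39 (SE, limma adjusted p = 0.000158). LYN and FGR, kinases of the Src family in myeloid cells, rose by 2.68 and 2.25 (adjusted p = 0.000615 and 0.000591), and ARRB1, an arrestin that takes activated receptors off the surface, rose by 1.74 (adjusted p = 0.00194). A second probe set of LYN was also called, at 2.52, and another was not, at 0.01. With the GAPDH covariate 4 of the 22 were called, while the calls over all probe sets fell from 4689 to 1428. Against endometritis 11 of the 22 were higher in mastitis, beside 9.14% of all genes called higher. The count of 11 ran from 6 to 13 when single arrays were left out.

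The genes that switch these chemokines on, among them Toll-like receptors, cytokines and parts of the NF-kappaB pathway, numbered 30 with a probe set of 35 listed. In mastitis 16 were higher than in healthy, 0 lower and 14 did not pass, with a median of 1.13. Over all genes 11.3% were called higher and 15.8% lower. TLR4, the receptor for bacterial lipopolysaccharide, had a lowest, median and highest value of 8.56, 9.51 and 10.43 in mastitis, 3.27, 4.82 and 7.08 in endometritis and 3.37, 4.94 and 6.79 in healthy, and rose by 4.42 ± 0.69 (SE, limma adjusted p = 0.000417). TLR2, which recognises bacterial lipoproteins, rose by 3.29 ± 0.59 (adjusted p = 0.00119). CEBPB, a transcription factor of acute inflammation, rose by 4.05 (adjusted p = 9.71e-05), NFKB1 by 3.10, the kinase IKBKB by 2.93 and the tumour necrosis factor receptor TNFRSF1A by 3.24 (adjusted p = 0.000129, 1.9e-05 and 0.000194). A second probe set of CEBPB did not pass (0.36, adjusted p = 0.0890).

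The cytokines at the head of that pathway did not pass against healthy. IL1B differed by 2.33 ± 0.99 (SE, limma adjusted p = 0.122; second probe set 2.47, adjusted p = 0.0507), with 7.34, 8.55 and 10.10 as lowest, median and highest in mastitis and 3.86, 6.70 and 7.82 in healthy. TNF differed by 0.01 (adjusted p = 1). IL17A was at background in healthy and in endometritis and reached 3.03 at most in mastitis. NFKBIA, an inhibitor that NF-kappaB itself induces, differed by 2.13 (adjusted p = 0.0644). Against endometritis 18 of the 30 were higher in mastitis, beside 9.14% of all genes called higher, and these included IL1B at 3.54 (adjusted p = 0.0238) and NFKBIA at 2.71 (adjusted p = 0.0252). In endometritis 0 of the 30 was called against healthy (median -0.01).

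Adhesion molecules by which neutrophils halt on and cross the vessel wall were a last list, with 17 of 20 measured. In mastitis 7 were higher than in healthy, 0 lower and 10 did not pass, with a median of 1.07. Over all genes 11.3% were called higher and 15.8% lower. ICAM3, ICAM1 and CD47, 3 surface proteins of the immunoglobulin superfamily, rose by 3.96, 3.68 and 2.42 (limma adjusted p = 0.000488, 0.00103 and 8.69e-05), and TLN1, which links integrins to actin, rose by 1.85 (adjusted p = 0.00231), its second probe set not passing (0.71, adjusted p = 0.0642). SELE, a selectin of activated endothelium, was at background in all 3 groups. With the GAPDH covariate 3 of the 17 were called, while the calls over all probe sets fell from 4689 to 1428.

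Neutrophil markers were higher, and mammary secretory and epithelial markers lower, on the same mastitis arrays. Of 20 neutrophil markers 11 were measured. In mastitis 6 were higher than in healthy, 0 lower and 5 did not pass (median 3.10), beside 11.3% of all genes called higher. The 6 included S100A9 at 5.48, VNN2 at 4.88, S100A8 at 4.56 and NCF4 at 3.10. Their mean level per array ran from 6.31 to 7.34 in mastitis, 3.63 to 5.46 in endometritis and 3.99 to 5.39 in healthy. It was highest within endometritis on array 6 and within healthy on array 1, the arrays that also held the most CXCR1 in their group. In mastitis it was highest on array 1 (7.34), whereas CXCR1 was highest on array 2 (12.03). Endometritis 6 and healthy 1 were also highest in their groups for the genes that switch the chemokines on (means of 6.13 and 6.10). The match was thus not particular to neutrophil markers. The granule proteins MPO and PGLYRP1 were at background in mastitis, and ELANE and PGLYRP1 in endometritis and healthy. In these bulk samples fewer cells of a type and less RNA per cell cannot be told apart, and the part of cell composition in the difference of CXCR1 and its ligands was not tested.

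Of 16 macrophage markers 13 were measured and 0 passed between mastitis and healthy (median 0.56), with a mean level of 5.76 to 8.46 in mastitis, 4.69 to 9.01 in endometritis and 4.60 to 8.04 in healthy. CD68 had the smallest p, with a difference of 1.94 (limma adjusted p = 0.0986), while CD14 differed by 1.31 (adjusted p = 0.210). Some other probe sets of these markers passed, in either direction. The second of CD14 was higher by 2.07 (adjusted p = 0.0362), and 1 of MSR1, a gene named after its value was seen, was lower by 2.91 (adjusted p = 0.000443). All 14 mammary secretory genes were measured, and 13 were lower in mastitis and 1 did not pass (median -5.63), beside 15.8% of all genes called lower. Their mean level was 5.87 to 8.64 in mastitis, 9.45 to 12.58 in endometritis and 10.84 to 12.45 in healthy, so RNA of milk-secreting cells was strong in the healthy arrays. Of 14 epithelial structure genes 12 were measured and 8 were lower in mastitis, among them KRT19 at -5.67 and EPCAM at -3.87, beside the same 15.8%. With the GAPDH covariate 4 were called, while the calls over all probe sets fell from 4689 to 1428. Their mean level was 2.63 to 2.97 in mastitis, 3.22 to 5.20 in endometritis and 3.82 to 5.25 in healthy. No T cell or erythroid marker was called of 13 and 6 measured. Of 9 NK and cytotoxic markers 3 were higher in mastitis and of 5 B cell markers 1 was, beside 11.3% of all genes, and with the GAPDH covariate 0 of either list was called. The B cell call was also lost with only the 12 arrays compared and on leaving out single arrays (8 of 18 fits). In none of these lists was a gene called between endometritis and healthy.

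**Figure D5:**
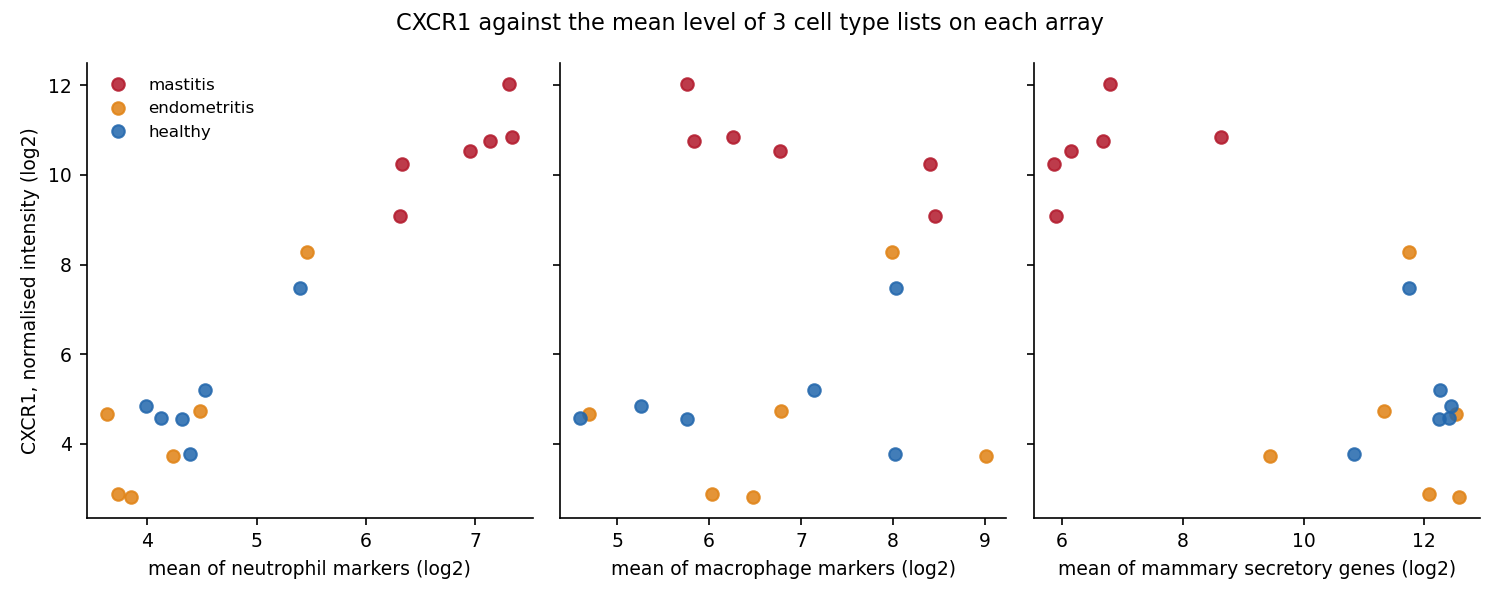
CXCR1 in log2 normalised intensity on the y axis against the mean log2 level of neutrophil, macrophage and mammary secretory markers per array on the x axes, with 1 point per array coloured as mastitis, endometritis or healthy. The mastitis arrays lie apart at a neutrophil marker level of 6.31 or more and a secretory level of 8.64 or less, while the macrophage levels of the 3 groups share 1 range.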

How the data were processed

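Expression in milk cells of 18 cows was read with Affymetrix arrays of the bovine genome and a 3′ labelling kit, from 100 ng of total RNA with an integrity number above 6, per the labels' protocols. Per the submitters' processing notes the tools were RMA, GCRMA and limma, without their roles, order or versions. The log2 normalised intensities were used as the authors deposited them. Neither the method behind them nor their log base is given in the sources used here. Folds rest on reading the values, which range between 2.43 and 14.2 around a median of 2.55, as log2.

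Of 24128 probe sets 112 are controls, and 24016 were tested without a filter on dim ones. In the platform annotation 13292 carry 1 gene symbol, 86 carry several and were left unnamed, and 10638 carry none. All 4 members matched the reference gene table (ARS-UCD2.0), CXCL2 by its accession, and that table served only for names and gene order, as the sources state no genome build for the array. For a gene with several probe sets, the one brightest on average over the 18 arrays stood for it. No column lacked a sample (0).

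A limma 3.58.1 model (R 4.3.3, two-sided) with the 3 groups was fitted to all 18 arrays, and p-values were adjusted by Benjamini-Hochberg over all probe sets within a comparison. Receptor minus ligand was compared with exact permutation tests (scipy 1.17.1), and relations over all 720 pairings. The number of arrays limits the precision.

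The members and the gene lists were chosen with earlier results of these data known. Named genes are the members, up to 4 genes of a list with the smallest p, all listed chemokines and chemokine receptors, IL1B, TNF, IL17A, TLR2, TLR4 and NFKBIA, the 5 genes most like CXCR1 and CXCL8, and neighbours in gene order. Tested on simulated data with 24016 probe sets, limma recovered 30%, 52%, 82% and 98% of the probe sets moved by 0.5, 1, 2 and 3 log2 units in the mastitis and healthy groups. In the endometritis and healthy groups the shares were 20%, 54%, 80% and 92%, and in the mastitis and endometritis groups 22%, 42%, 80% and 96%. Only 50 probe sets per size were moved, all with a mean above the table median, in independent normal noise. The deposited values differ from that setting, so the shares are not the power of these comparisons. Alternatives were a filter on dim probe sets, centring, quantile normalisation, only the 12 arrays compared, array weights, an intensity trend with a robust prior, a block of 2 levels for a number in the sample title of up to 120 or above it, the GAPDH covariate, ranks, and each array left out.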

Additional observations from a re-analysis of the deposited data

Results flagged for a closer look

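CXCR1 on endometritis array 6 stood at 8.28, with the next highest endometritis array at 4.74 and the lowest at 2.82. Its gap to that neighbour was 0.648 of the range of the group, above Dixon's 95% critical value of 0.625 for 6 arrays. It was the only such value among 21 groups of 6 values examined, and chance alone gives about 1 in 20. Without that array endometritis minus healthy was -1.30 for CXCR1 (limma adjusted p = 0.965) and mastitis minus endometritis was 6.81. The same array had the highest mean level of neutrophil markers in its group (5.46) and the highest CXCL2 and CXCL5 (11.67 and 11.02).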

How the results depend on the processing

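CXCR1 kept its call against healthy (5.01 to 5.76; 5.22 to 5.99 without single arrays) and against endometritis (5.22 to 6.80; 5.72 to 6.81) in all settings run. CXCL8 lost it against healthy with the GAPDH covariate (1.44). CXCL2 lost it against healthy with renewed quantile normalisation (1.99, adjusted p = 0.0568), array weights (1.90, 0.0983), the title number split at 120 as a block (2.25, 0.0549) and the GAPDH covariate (1.66, 0.395), and without single arrays gave 1.97 to 2.57. It was lost without mastitis 1, 2, 3, 4 or 6, endometritis 1 or 4, or healthy 2 to 6. Against endometritis CXCL2 lost it with array weights (2.28, 0.0595). CXCL5 against endometritis changed sign with that block (0.16) and ran from -0.65 to 0.42 without single arrays. The number of probe sets called in mastitis against healthy was 1428 with the GAPDH covariate, against 4689. In endometritis against healthy it was 1 with dim probe sets left out, centring, array weights or the trend with a robust prior, and 0 to 1 without single arrays (1 without healthy 6).

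On ranks among 18 arrays, receptor minus ligand gave -0.17 (CXCL8) and 0.50 (CXCL2) for mastitis against healthy, 0.17, 1.00 and 11 (CXCL8, CXCL2, CXCL5) for mastitis against endometritis, and -0.50 (CXCL2) and 0.00 (CXCL5) for endometritis against healthy. Without single arrays the last comparison ran from -0.72 to 0.22 for CXCL8, -0.20 to 0.75 for CXCL2 and -0.42 to 0.72 for CXCL5, and CXCL2 minus CXCL5 from -0.24 to 0.16. Relations of CXCR1 turned to -0.0857 in mastitis with CXCL5 by Spearman, and without the 2 far arrays to -0.077 (CXCL8) and -0.830 (CXCL5) in mastitis and -0.177 (CXCL5) in endometritis. Among the ligands in healthy they turned to -0.853 and -0.186. For these changes the cause was not tested. No member had a second probe set to try. No paired analysis was possible because the labels number no replicates. With 6 arrays a group and no scanner files used here, signal over background and RNA quality bound what can be read.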
